A study of Homo sapiens with 30 samples.

Results

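The second day of mesendoderm differentiation was followed in RUES2 cells, an established line of human embryonic stem cells, as the difference between cells collected at 48 h (WNT_ACT) and cells collected at 24 h (WNT). WNT_ACT cells had received 100 ng/mL of Wnt3a on day 1 and 10 ng/mL of Activin A on day 2, and WNT cells only the same day of Wnt3a. None of these cells received CPI-203, and all were cultured in TeSR E7 medium containing a ROCK inhibitor, per the labels' protocols. The comparison was chosen by its sample labels and rests on 4 of the 16 RNA libraries of the study, 2 per group. 3 further groups of 2 libraries were set beside it: WNT_E7 (Wnt3a on day 1, no Activin A on day 2, collected at 48 h), E7_ACT (no Wnt3a on day 1, 10 ng/mL of Activin A on day 2, collected at 48 h) and E7 (neither factor, collected at 24 h). The 4 libraries held 36268324 to 41579014 counts. Between WNT_ACT and WNT, the day and Activin A change together and cannot be told apart, so the same-time comparison of WNT_ACT with WNT_E7 is given beside it.

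As background, Wnt3a acts through beta-catenin and its TCF and LEF partners. Activin A, like its relative NODAL, binds activin receptors that phosphorylate SMAD2 and SMAD3, which enter the nucleus with SMAD4 and bind DNA together with factors such as FOXH1. In the gastrulating embryo both signals act in the primitive streak, where high NODAL activity marks the anterior streak, the source of definitive endoderm, and lower activity accompanies mesoderm.

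All 3 marker genes of the mesendoderm rose on the second day. EOMES, a T-box factor required for mesendoderm, had 483 and 84.0 CPM (counts relative to the library total, scaled between libraries) in WNT_ACT replicates 1 and 2, against 38.8 and 24.1 CPM in WNT. CER1, a secreted inhibitor of NODAL made by anterior endoderm, had 1974 and 123 CPM in WNT_ACT, against 0.0940 CPM (4 counts) and none in WNT. SOX17, a factor that specifies endoderm, had 41.6 and 7.56 CPM in WNT_ACT, against none and 0.0281 CPM (1 count) in WNT. For each of the 3 genes both WNT_ACT libraries lay above both WNT libraries, and replicate 1 was the higher WNT_ACT library; the libraries of these 2 groups did not overlap for 32.1% of all genes tested. The change was 2.76 for EOMES (log2 fold change, standard error SE 0.46, adjusted p = 0.00593) and 14.17 for CER1 (SE 2.40, adjusted p = 0.00802), both from edgeR with the replicate number as a block. SOX17 rose with an adjusted p of 0.00485, and its summed counts gave a ratio of 1939 (95% counting interval 348 to 76630). In edgeR without the block none of the 3 was called (adjusted p = 0.235 for EOMES, 0.137 for CER1 and 0.143 for SOX17). Without WNT replicate 1 none of the 3 was called (adjusted p = 0.096 for EOMES, 0.151 for CER1 and 0.125 for SOX17). CER1 also missed the threshold without WNT_ACT replicate 1 (0.0557) and without WNT replicate 2 (0.0745). After a second day without Activin A, WNT_E7 held 8.52 and 2.87 CPM of EOMES, none and 0.774 CPM of CER1, and no SOX17 count. At this same time all 3 were higher in WNT_ACT than in WNT_E7 (EOMES 5.43, SE 0.53, adjusted p = 0.000898; CER1 10.92, SE 1.97, adjusted p = 0.0133; SOX17 adjusted p = 0.00607).

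**Figure D1:**
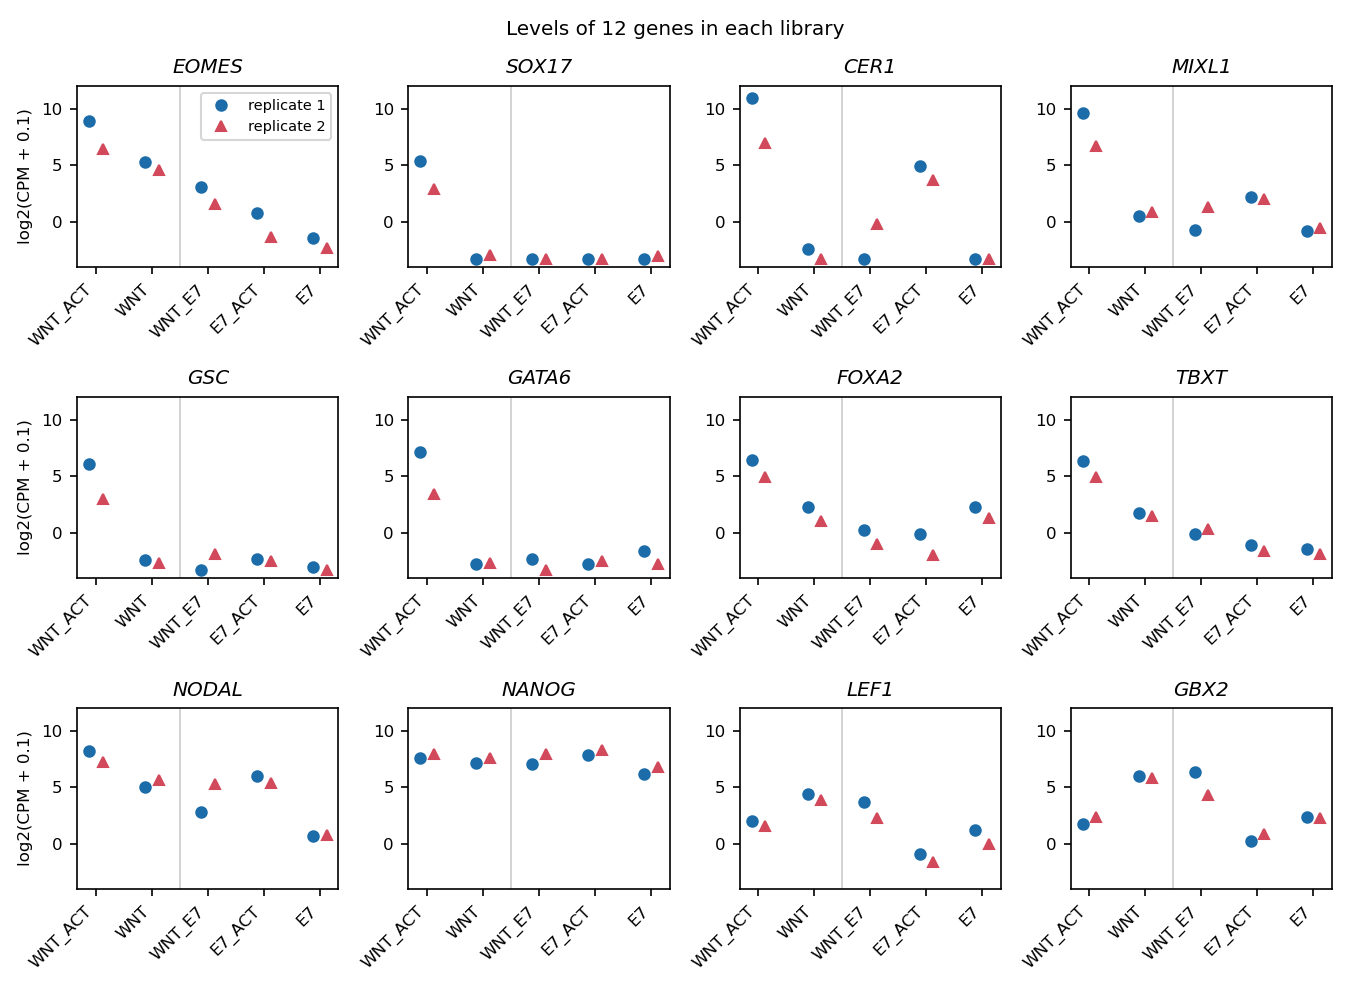
Level of 12 genes in each library, as log2(CPM + 0.1), in WNT_ACT, WNT, WNT_E7, E7_ACT and E7; circles are replicate 1 and triangles replicate 2. EOMES and SOX17 are highest in the WNT_ACT libraries, and WNT_ACT replicate 1 stands above replicate 2 for EOMES, SOX17 and CER1.

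The gene starts of 4 of the genes that rose are shown here because they are the region where SMAD, FOXH1 and TCF factors would be looked for. They are EOMES and CER1 with MIXL1 and GSC, 2 homeodomain factors of the streak described below. Each window of 300 bases runs from 250 before to 50 after the RefSeq gene start on the gene's own strand (GRCh38.p14), at chr9:14722684-14722983 (minus strand) for CER1, chr1:226223414-226223713 (plus) for MIXL1, chr14:94770064-94770363 (minus) for GSC and chr3:27722274-27722573 (minus) for EOMES. Capitals mark exact matches, on either strand, to the SMAD box CAGAC, the FOXH1 motif AATNCACA or the TCF/LEF core TCAAAG.
CER1: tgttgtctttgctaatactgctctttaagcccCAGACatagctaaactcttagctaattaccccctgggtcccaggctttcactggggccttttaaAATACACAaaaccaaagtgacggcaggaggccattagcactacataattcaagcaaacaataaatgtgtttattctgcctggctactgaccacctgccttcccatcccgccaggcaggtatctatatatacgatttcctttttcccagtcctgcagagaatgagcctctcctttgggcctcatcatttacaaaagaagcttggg
MIXL1: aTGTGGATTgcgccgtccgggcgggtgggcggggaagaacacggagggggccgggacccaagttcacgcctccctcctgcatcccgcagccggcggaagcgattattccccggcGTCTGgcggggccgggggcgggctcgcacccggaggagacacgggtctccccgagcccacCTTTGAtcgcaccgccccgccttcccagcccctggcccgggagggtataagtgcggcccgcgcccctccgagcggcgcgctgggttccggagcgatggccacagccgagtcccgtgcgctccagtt
GSC: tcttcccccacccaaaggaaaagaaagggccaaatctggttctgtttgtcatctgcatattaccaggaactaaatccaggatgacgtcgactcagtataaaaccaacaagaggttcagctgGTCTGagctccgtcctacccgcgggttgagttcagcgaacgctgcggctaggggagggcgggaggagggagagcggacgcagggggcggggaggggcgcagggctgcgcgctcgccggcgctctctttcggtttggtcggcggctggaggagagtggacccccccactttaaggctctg
EOMES: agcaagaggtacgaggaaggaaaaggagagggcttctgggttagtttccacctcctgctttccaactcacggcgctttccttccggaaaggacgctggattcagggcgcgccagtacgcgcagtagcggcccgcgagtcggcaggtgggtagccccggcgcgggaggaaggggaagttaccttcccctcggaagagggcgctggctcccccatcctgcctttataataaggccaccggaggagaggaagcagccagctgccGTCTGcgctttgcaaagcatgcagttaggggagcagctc
These 4 were chosen after their letters were seen, and each holds 1 SMAD box. Among other genes that rose, the windows of GATA6 and WNT3 each hold 1 SMAD box and neither other motif, like those of GSC and EOMES. That of TBXT, described below, holds none of the 3 motifs. CER1 and MIXL1 each hold 1 FOXH1 match as well, and MIXL1 also holds 1 TCF/LEF core. Over the 13696 promoter windows of tested genes, 43.8% hold a SMAD box, 1.74% a FOXH1 match and 9.37% a TCF/LEF core. Among the 792 windows of genes that rose the shares were 44.6%, 2.78% and 8.46% in the same order of motifs, and among the 482 windows of genes that fell they were 38.8%, 2.70% and 9.75%. A T-box half-site (AGGTGTGA) was present in 0.505% of windows of genes that rose, against 0.759% of all windows, and the GATA motif AGATAA in 6.06%, against 5.80% of all. No motif searched is contained in another. These matches describe letters in the windows and are no measure of binding.

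Across the transcriptome, 1648 of 17793 genes tested were called between WNT_ACT and WNT (adjusted p under 0.05, 9.26%). Of these, 1029 rose (5.78%) and 619 fell (3.48%), and 526 rose and 251 fell by at least 2-fold. The median change over all genes was -0.02 on the log2 scale. The count depended on the libraries used: it was 399 without WNT_ACT replicate 1, 1246 without WNT_ACT replicate 2, 196 without WNT replicate 1 and 338 without WNT replicate 2, with the lone sample of a group assumed to vary like the other groups. Without the replicate block 112 genes were called (89 higher, 23 lower). Nothing in the labels says that the replicates came from separate cultures, so each p-value reflects only how far these samples spread, which may be technical. Of the 108 called genes that the naming rule picked for WNT_ACT against WNT, 22 were called whichever of the 4 libraries was left out and 12 without the block.

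The change was larger in replicate 1 than in replicate 2 for most called genes. Genes that rose had a median change of 1.07 on the log2 scale in replicate 1 and 0.92 in replicate 2, and 700 of the 1029 (68.0%) changed more in replicate 1. Genes that fell had medians of -0.98 and -0.72 in replicates 1 and 2, and 410 of 619 fell further in replicate 1. Over all genes tested 52.0% had the larger absolute change in replicate 1.

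**Figure D2:**
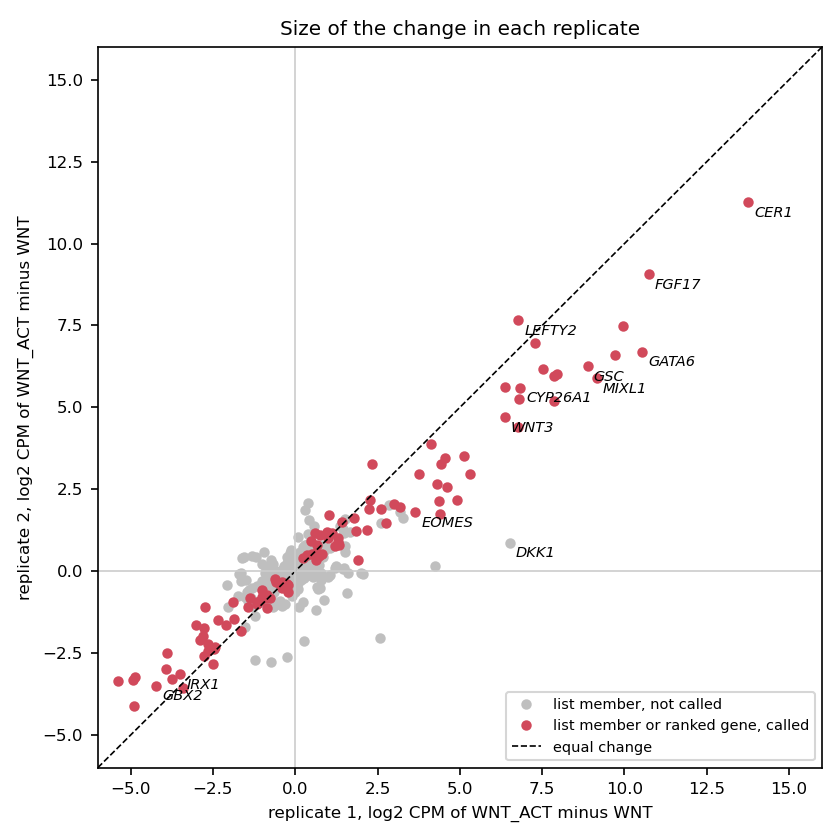
Change between WNT_ACT and WNT in replicate 1 (horizontal) and replicate 2 (vertical), as the log2 difference of CPM, for 350 list members and named genes. Called genes at the upper right lie mostly below the dashed line of equal change, and 12 of 14 mesendoderm factors changed more in replicate 1.

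Among the ligands of the pathway, edgeR called 0 of the 6 listed Nodal and Activin ligands higher, with a list median of -0.27. It called 1 lower (16.7%, against 3.48% of all genes). Higher members numbered 2 at an unadjusted p under 0.05, 0 in DESeq2 and 2 in the fit of the compared groups alone. INHBA, which encodes the subunit of Activin A itself, had 0.0513 and 0.264 CPM in WNT_ACT and 1.46 and 1.74 CPM in WNT, a fall of all WNT_ACT libraries below all WNT libraries (log2 fold change -3.32, SE 0.49, adjusted p = 0.00353). NODAL stood at 303 and 153 CPM in WNT_ACT and 31.5 and 49.5 CPM in WNT. Its libraries did not overlap, but the change of 2.44 (SE 0.88) did not pass the test (adjusted p = 0.117). GDF3, a ligand that acts with NODAL, had 132 and 135 CPM in WNT_ACT and 21.5 and 49.3 CPM in WNT (2.00, SE 0.62, adjusted p = 0.0711).

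Of 12 receptors and transducers, 11 were tested and 2 rose (18.2%, against 5.78% of all genes), with a median of 0.25. SMAD3, the transducer, had 32.6 and 30.2 CPM in WNT_ACT and 20.7 and 22.3 CPM in WNT (0.55, SE 0.13, adjusted p = 0.0271). ACVR1C, a type I receptor, rose by 1.04 (SE 0.29, adjusted p = 0.0462). The other transducers showed values near 0: SMAD2 differed by -0.18 (adjusted p = 0.232), FOXH1 by 0.28 (adjusted p = 0.319) and the receptor ACVR1B by 0.03 (adjusted p = 0.937). CRIPTO, the NODAL co-receptor, differed by 0.30 (adjusted p = 0.401). Against WNT_E7 at the same time, edgeR called 0 receptors and transducers (3 at an unadjusted p under 0.05). The count of 2 that rose against WNT became 1 without WNT_ACT replicate 2 and 0 without any of the other 3 libraries or without the block. ACVR1C was called in none of the fits that left out a library (adjusted p = 0.126 to 0.251).

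Secreted and intracellular inhibitors of the pathway rose in part, with a median of 1.16. Of 13 listed and tested, 5 rose (38.5%, against 5.78% of all genes) and 1 fell (7.69%, against 3.48%). LEFTY1, which blocks NODAL, had 198 and 36.7 CPM in WNT_ACT and 2.33 and 0.703 CPM in WNT (6.09, SE 1.21, adjusted p = 0.0127). LEFTY2 stood at 61.5 and 38.5 CPM in WNT_ACT and 0.517 and 0.141 CPM in WNT (7.20, SE 1.68, adjusted p = 0.0244); these 2 genes are close paralogs, and how reads shared between them were counted is not given in the sources used here. PMEPA1, which sequesters receptor SMADs, had 77.5 and 58.6 CPM in WNT_ACT and 12.7 and 15.5 CPM in WNT (2.29, SE 0.39, adjusted p = 0.00663). All of these genes were higher in both WNT_ACT libraries, and the 2 groups did not overlap for 32.1% of all genes tested. BAMBI, a pseudoreceptor, rose by 1.56 (SE 0.40, adjusted p = 0.0345), and CER1 is the other inhibitor that rose. FST, which encodes the Activin antagonist follistatin, went the other way, with 85.5 and 70.0 CPM in WNT_ACT against 267 and 248 CPM in WNT (-1.74, SE 0.30, adjusted p = 0.00671). FST also stood low in WNT_E7, at 158 and 60.6 CPM, and the difference between WNT_ACT and WNT_E7 was -0.44 (SE 0.29, adjusted p = 0.43). Of the 5 inhibitors that rose against WNT, 2 were called against WNT_E7 (PMEPA1 1.85, SE 0.39, adjusted p = 0.0197, and CER1). LEFTY1 (3.70, SE 1.08, adjusted p = 0.0715) and LEFTY2 (3.44, SE 1.27, adjusted p = 0.141) were not, with 0.793 and 10.9 CPM of LEFTY1 in the WNT_E7 libraries. The count of inhibitors that rose was 6 without WNT_ACT replicate 2 and 0 when any of the other 3 libraries was left out, and 0 without the block.

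The mesendoderm and anterior streak factors had the highest median of the 25 lists, a log2 fold change of 3.64 against -0.02 over all genes. Of 14, 10 rose (71.4%, against 5.78% of all genes) and 1 fell (7.14%, against 3.48%). MIXL1 had 795 and 105 CPM in WNT_ACT and 1.34 and 1.71 CPM in WNT (7.82, SE 1.32, adjusted p = 0.0063). GSC, an organizer gene, had 67.7 and 8.01 CPM in WNT_ACT and 0.0940 and 0.0562 CPM in WNT (8.78, SE 1.19, adjusted p = 0.00242). LHX1, a LIM homeodomain factor of the anterior streak and head organizer, had 66.9 and 20.1 CPM in WNT_ACT and 0.376 and 0.112 CPM in WNT (7.37, SE 1.22, adjusted p = 0.00593). For all 3 the lowest WNT_ACT library was above the highest WNT library. The libraries of these groups did not overlap for 32.1% of all genes tested. FOXA2, a pioneer factor of endoderm and axial mesoderm, had 83.8 and 30.0 CPM in WNT_ACT and 4.79 and 2.00 CPM in WNT (4.04, SE 0.89, adjusted p = 0.0193). ZIC2 rose by 1.14 (SE 0.12, adjusted p = 0.00105). OTX2, a head organizer factor, stood at 113 and 43.8 CPM in WNT_ACT and 12.4 and 12.5 CPM in WNT without passing the test (2.55, SE 0.91, adjusted p = 0.113). The other members that rose were EOMES, HHEX, GATA4, GATA6 and SNAI1. In the same-time comparison with WNT_E7 the list again had 10 members higher and 1 lower (median 5.05), beside 4% and 2.35% of all genes. Without WNT replicate 1 the count of 10 became 1, without WNT replicate 2 it was 6, without WNT_ACT replicate 1 it was 7 and without WNT_ACT replicate 2 it was 10. It was 0 without the block.

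Definitive endoderm genes followed, with a median of 1.81 and 10 of 20 higher (50%, against 5.78% of all genes). This list shares members with the mesendoderm list, among them GATA6, GATA4 and HHEX, so their rises are counted in both. Lower members numbered 0 in edgeR, 0 at an unadjusted p under 0.05 and 0 in DESeq2. GATA6, a zinc finger factor of early endoderm, had 143 and 11.0 CPM in WNT_ACT and 0.0470 and 0.0562 CPM in WNT (2 counts in each; 10.33, SE 1.35, adjusted p = 0.00211). Its relative GATA4 had 11.6 and 3.01 CPM in WNT_ACT and no count in WNT, and was at least 191-fold higher, set against a floor of 3 counts over the WNT group (adjusted p = 0.00603). HHEX, a homeobox gene of anterior endoderm, had 13.2 and 4.23 CPM in WNT_ACT and 0.564 and 0.393 CPM in WNT (4.06, SE 0.67, adjusted p = 0.00593). In these 3 genes WNT_ACT replicate 1 was again the higher library. PRDM1 rose by 3.44 (SE 0.65, adjusted p = 0.0104). The Wnt receptor genes FZD8 and FZD5 rose by 2.76 (SE 0.48, adjusted p = 0.00737) and 2.10 (SE 0.28, adjusted p = 0.0022). CXCR4, a chemokine receptor used to sort definitive endoderm, had 2.05 and 1.80 CPM in WNT_ACT and 0.611 and 0.759 CPM in WNT and was not called (1.52, SE 0.44, adjusted p = 0.0543). KIT, the other common surface marker, differed by 0.53 (SE 0.19, adjusted p = 0.113). Against WNT_E7 the list had 10 members higher and 0 lower (median 1.60), beside 4% and 2.35% of all genes. The 10 became 4 without WNT_ACT replicate 1, 12 without WNT_ACT replicate 2, 1 without WNT replicate 1 and 5 without WNT replicate 2, and 1 without the block. In these bulk libraries, fewer cells of a type and less RNA per cell cannot be told apart, so a level says nothing of how many cells carried it.

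**Figure D3:**
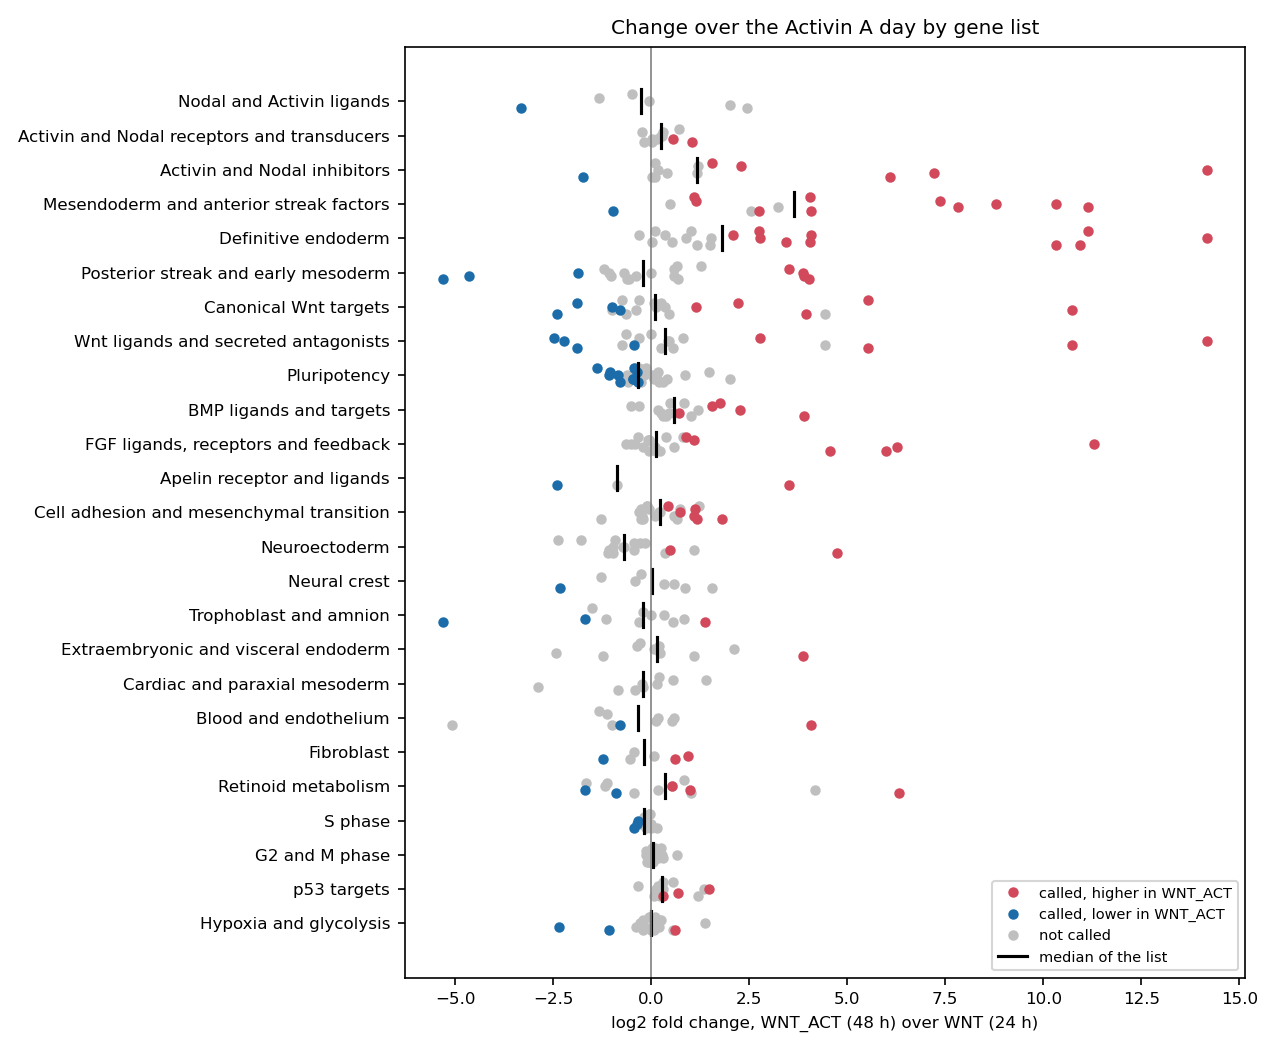
Log2 fold change of WNT_ACT against WNT for the tested members of 25 gene lists; each point is a gene and each bar the list's median. The mesendoderm list (median 3.64) and the definitive endoderm list (1.81) lie farthest above 0.

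Posterior streak and early mesoderm genes split. Of 26 listed, 20 were tested, with a median of -0.20. Of these 20, 4 rose (20%, against 5.78% of all genes) and 3 fell (15%, against 3.48%). TBXT, the T-box factor brachyury, had 79.4 and 30.6 CPM in WNT_ACT and 3.34 and 2.73 CPM in WNT (4.02, SE 0.81, adjusted p = 0.0132). APLNR, the apelin receptor of migrating mesendoderm, had 51.6 and 25.9 CPM in WNT_ACT and 2.58 and 4.02 CPM in WNT (3.51, SE 0.42, adjusted p = 0.00153). FOXC1 and PDGFRA rose by 3.91 (SE 0.83) and 3.88 (SE 0.80). CDX2, a posterior homeobox gene, fell to 0.0257 and 0.0793 CPM in WNT_ACT, against 3.08 and 1.26 CPM in WNT (-5.32, SE 0.63, adjusted p = 0.00153). NKX1-2, expressed in the caudal epiblast of the mouse, fell to 81.6 and 133 CPM in WNT_ACT, against 353 and 411 CPM in WNT (-1.87, SE 0.26, adjusted p = 0.00269). TBX6, a factor of presomitic mesoderm, had 2.26 and 2.33 CPM in WNT_ACT and 1.41 and 1.46 CPM in WNT and was not called (0.67, SE 0.20, adjusted p = 0.0604). The count of 4 that rose became 1 without WNT_ACT replicate 1, without WNT replicate 1 or without WNT replicate 2, and 1 without the block. The count of 3 that fell was 2 or 3 in the fits that leave out 1 library and 0 without the block.

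CDX2 also fell without Activin A, to 0.149 and 0.0250 CPM in WNT_E7, and WNT_ACT and WNT_E7 differed by -0.66 (SE 1.07, adjusted p = 0.774). For TBXT, WNT_E7 had 0.818 and 1.17 CPM, and the same-time difference between WNT_ACT and WNT_E7 was 5.58 (SE 0.90, adjusted p = 0.00709). In that same-time comparison 6 of the 20 tested members of the posterior list were higher in WNT_ACT and 0 lower. This stands beside 4% and 2.35% of all genes.

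The Wnt targets also moved in both directions, with a median of 0.09. Of the 20 tested (21 listed), 5 were higher (25%, against 5.78% of all genes) and 4 lower (20%, against 3.48%). WNT3, the ligand of the posterior epiblast and streak, had 81.5 and 55.7 CPM in WNT_ACT and 0.940 and 2.11 CPM in WNT (5.52, SE 0.83, adjusted p = 0.00367), one of the genes also called without the block (adjusted p = 0.0399). DKK4, a secreted Wnt antagonist, had 96.3 and 18.9 CPM in WNT_ACT and 2 counts in each WNT library (10.73, SE 1.67, adjusted p = 0.00959). NOTUM, a secreted enzyme that inactivates Wnt proteins, rose by 2.21 (SE 0.41, adjusted p = 0.00949) and APCDD1 by 1.13 (SE 0.30, adjusted p = 0.0387). LEF1, which carries beta-catenin to DNA, had 3.93 and 2.80 CPM in WNT_ACT and 21.5 and 14.2 CPM in WNT (-2.40, SE 0.36, adjusted p = 0.00353). CCND1, the G1 cyclin, fell by 0.99 (SE 0.17), TCF7 by 0.79 (SE 0.20) and WNT5B by 1.90 (SE 0.41). AXIN2, a feedback target, stood at 87.3 and 58.1 CPM in WNT_ACT and 109 and 117 CPM in WNT (-0.65, SE 0.19, adjusted p = 0.0564), and NKD1 differed by 0.12 (SE 0.14, adjusted p = 0.63). The list's counts of 5 higher and 4 lower became 0 and 1 without WNT replicate 1, 2 and 2 without WNT_ACT replicate 1, 3 and 1 without WNT replicate 2, and 1 and 0 without the block. Of the 4 genes that fell, only LEF1 was called whichever of the 4 libraries was left out (highest adjusted p = 0.0474); CCND1 reached 0.0724, TCF7 0.181 and WNT5B 0.15.

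SP5, a direct beta-catenin target, separated the second days with and without Activin A. Its level was 93.0 and 47.7 CPM in WNT_ACT, 24.5 and 10.1 CPM in WNT_E7 and 78.5 and 91.2 CPM in WNT. WNT_ACT and WNT overlapped (-0.39, SE 0.28, adjusted p = 0.426), while WNT_E7 lay below both (-2.44 against WNT, adjusted p = 0.0394) and WNT_ACT was higher than WNT_E7 by 2.05 (SE 0.29, adjusted p = 0.00415). At the same time point 7 of the 20 tested Wnt targets were higher in WNT_ACT than in WNT_E7 and 0 were lower. This stands beside 4% and 2.35% of all genes. Among Wnt ligands and antagonists (18 tested), 4 rose (22.2%, against 5.78% of all genes) and 4 fell (22.2%, against 3.48%) in WNT_ACT against WNT. These counts became 2 and 0 without WNT_ACT replicate 1, 0 and 0 without WNT replicate 1, 1 and 1 without WNT replicate 2, and 1 and 0 without the block. The antagonists SFRP2, WIF1 and SHISA3 fell by 0.43 (SE 0.11), 2.23 (SE 0.35) and 2.47 (SE 0.52), while SHISA2 rose by 2.78 (SE 0.54). DKK1, a head inducer, had 30.3 and 1.22 CPM in WNT_ACT and 0.282 and 0.646 CPM in WNT, with replicate 1 the higher WNT_ACT library (4.44, SE 1.30, adjusted p = 0.0589).

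Pluripotency genes declined in part. Of 32 listed and tested, 0 rose and 10 fell in edgeR (31.2%, against 3.48% of all genes), with a median of -0.34. Higher members numbered 4 at an unadjusted p under 0.05, 0 in DESeq2 and 4 in the fit of the compared groups alone. The core factors were not among the genes called, and POU5F1 and NANOG leaned upward. POU5F1 had 690 and 815 CPM in WNT_ACT and 586 and 724 CPM in WNT (0.20, SE 0.08, adjusted p = 0.167). NANOG had 187 and 251 CPM in WNT_ACT and 138 and 197 CPM in WNT (0.39, SE 0.16, adjusted p = 0.16). SOX2 had 155 and 318 CPM in WNT_ACT and 315 and 390 CPM in WNT (-0.62, SE 0.18, adjusted p = 0.052), and against WNT_E7 it was lower by an amount that passed the test (-0.69, SE 0.18, adjusted p = 0.0415). The largest fall was that of PODXL, a surface sialomucin that carries stem cell epitopes, with 767 and 1638 CPM in WNT_ACT against 2864 and 3135 CPM in WNT (-1.38, SE 0.24, adjusted p = 0.00683). Falls were also measured for the long noncoding RNA LNCPRESS1 (-1.08, SE 0.21), the zinc finger gene SALL1 (-1.05, SE 0.21), PRDM14 (-0.85, SE 0.23) and the deubiquitinase gene USP44 (-0.79, SE 0.11). Smaller falls, between -0.46 and -0.33, were those of DNMT3B, a DNA methyltransferase gene, and of DPPA4, VRTN, LIN28A and ZFP42. With WNT_E7 in place of WNT the list had 0 higher and 10 lower (median -0.39), beside 4% and 2.35% of all genes. The 10 became 1 without WNT_ACT replicate 1 or without WNT replicate 1, 2 without WNT replicate 2 and 8 without WNT_ACT replicate 2, and 0 without the block.

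Ligand genes of 2 other pathways rose as well. Of 21 FGF genes tested (22 listed), 6 rose (28.6%, against 5.78% of all genes), 0 fell in edgeR and the median was 0.11. Lower members numbered 2 at an unadjusted p under 0.05, 2 in DESeq2 and 3 in the fit of the compared groups alone. FGF17 had 205 and 71.4 CPM in WNT_ACT and 3 counts in each WNT library (11.29, SE 1.05, adjusted p = 0.00084), a rise that was called whichever library was left out. FGF8 had 26.1 and 14.9 CPM in WNT_ACT and 0.188 and 0.337 CPM in WNT (6.26, SE 1.25, adjusted p = 0.0155), and FGF4 rose by 5.98 (SE 1.13, adjusted p = 0.0105). FLRT3, a transmembrane protein that interacts with FGF receptors in Xenopus, rose by 4.55 (SE 0.95), and the feedback genes SPRY1 and ETV5 rose by 1.09 (SE 0.17) and 0.88 (SE 0.17). ETV5 stood at 39.8 and 51.9 CPM in WNT_ACT and 45.3 and 46.3 CPM in WNT_E7 (difference -0.01, SE 0.17, adjusted p = 0.986). The count of FGF genes that rose ran from 1 (without WNT replicate 2) over 2 (without WNT replicate 1) and 3 (without WNT_ACT replicate 1) to 5 (without WNT_ACT replicate 2), and was 1 without the block.

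Of 17 BMP ligands and targets, 5 rose (29.4%, against 5.78% of all genes) and 0 fell in edgeR, with a median of 0.59. Lower members numbered 0 at an unadjusted p under 0.05 and in DESeq2, and 1 in the fit of the compared groups alone. BMP2, a ligand, had 47.9 and 9.04 CPM in WNT_ACT and 1.53 and 1.97 CPM in WNT (3.89, SE 0.66, adjusted p = 0.0063). CHRD, which encodes the BMP antagonist chordin, had 5.62 and 2.51 CPM in WNT_ACT and 1.60 and 0.787 CPM in WNT (1.75, SE 0.28, adjusted p = 0.00479). SMAD6, an inhibitory SMAD, rose by 2.26 (SE 0.41) and BMP7 by 0.71 (SE 0.19), and BAMBI is also on this list. ID1, a direct BMP target, had 21.0 and 45.8 CPM in WNT_ACT and 13.3 and 31.4 CPM in WNT and was not called (0.59, SE 0.23, adjusted p = 0.147). Without WNT replicate 1 the 5 became 0, without WNT_ACT replicate 1 or WNT replicate 2 they became 2, and without the block 1. Of the apelin genes, the receptor APLNR rose and the ligand APELA fell to 13.3 and 25.3 CPM in WNT_ACT, against 73.7 and 130 CPM in WNT (-2.41, SE 0.26, adjusted p = 0.00107). The other ligand, APLN, differed by -0.87 (SE 0.34, adjusted p = 0.146).

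Among adhesion and matrix genes, N-cadherin, an integrin and 3 metalloproteinases rose. Of 22 tested, 6 rose (27.3%, against 5.78% of all genes) and 0 fell in edgeR, with a median of 0.22. Lower members numbered 3 at an unadjusted p under 0.05, 0 in DESeq2 and 1 in the fit of the compared groups alone. CDH2, N-cadherin, had 381 and 156 CPM in WNT_ACT and 83.4 and 65.5 CPM in WNT (1.80, SE 0.29, adjusted p = 0.00525). CDH1, E-cadherin, stood at 350 and 490 CPM in WNT_ACT and 479 and 489 CPM in WNT (-0.22, SE 0.13, adjusted p = 0.326). ITGA5, a fibronectin receptor subunit, had 83.4 and 79.3 CPM in WNT_ACT and 33.6 and 38.9 CPM in WNT (1.17, SE 0.12, adjusted p = 0.001). The matrix metalloproteinase genes MMP14, MMP2 and MMP15 rose by 1.11 (SE 0.11), 0.73 (SE 0.10) and 0.44 (SE 0.10), and SNAI1, a repressor of E-cadherin, by 1.10 (SE 0.19). ITGA5, MMP2 and MMP14 were the 3 members called without the block, and they were called whichever library was left out. The list's count of rises was 3 without WNT replicate 1 or WNT replicate 2, 4 without WNT_ACT replicate 1 and 6 without WNT_ACT replicate 2.

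In retinoid metabolism, 3 of 14 genes rose (21.4%, against 5.78% of all genes) and 2 fell (14.3%, against 3.48%), with a median of 0.34. CYP26A1, which degrades retinoic acid, had 140 and 56.7 CPM in WNT_ACT and 1.17 and 1.12 CPM in WNT (6.33, SE 1.32, adjusted p = 0.0156), not called without WNT replicate 1 (0.177), WNT replicate 2 (0.109) or WNT_ACT replicate 1 (0.0722). The receptor gene RARA rose by 0.99 (SE 0.17) and CRABP1 by 0.53 (SE 0.15). DHRS3, a retinal reductase, fell by 1.69 (SE 0.40). The count of 3 that rose was 2 without WNT_ACT replicate 2 and 0 without any of the other 3 libraries or without the block.

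Lists of other cell types held 0 to 3 called members each, which is a high share of the smaller lists: beside 9.26% of all genes it was 50% of 6 fibroblast genes, 27.3% of 11 trophoblast and amnion genes, 20% of 10 blood and endothelium genes and 12.5% or less of the others. Of 17 neuroectoderm genes tested, 2 rose (SIX3 by 4.73, SE 1.12, and NES by 0.49, SE 0.11), 0 fell in edgeR (3 lower at an unadjusted p under 0.05, 1 in DESeq2) and the median was -0.68; 9 of the 17 stayed under 1 CPM in all 4 libraries, and PAX6 reached 0.128 CPM at most. Of 8 neural crest genes 1 fell (SOX9 by 2.32, SE 0.60), and SOX10 was too low to be tested. Of 11 trophoblast and amnion genes 1 rose (GABRP by 1.38, SE 0.34) and 2 fell (CDX2 and IGFBP3), and the placental hormone genes CGA and CGB3 were too low to be tested. Of 10 visceral endoderm genes 1 rose (PDGFRA); TTR and HNF4A, which define that tissue, were too low to be tested, and AFP had 0.359 and 0.952 CPM in WNT_ACT and 1.32 and 1.66 CPM in WNT (-1.24, SE 0.43, adjusted p = 0.0993). SOX17, GATA4 and GATA6 are expressed in visceral endoderm too. Of 9 cardiac and paraxial mesoderm genes edgeR called 0, with 3 at an unadjusted p under 0.05 and 1 called by DESeq2. Among 10 blood and endothelium genes SOX18 rose (4.08, SE 0.79) and TEK fell (-0.79, SE 0.14), and among 6 fibroblast genes COL1A2 and PDGFRB rose by 0.60 (SE 0.12) and 0.95 (SE 0.21) and COL1A1 fell by 1.23 (SE 0.21). Without WNT replicate 2 only the 2 falls of the trophoblast and amnion list were called in these 7 lists. Summed levels of these lists were 480 and 441 CPM in WNT_ACT and 336 and 368 CPM in WNT for neuroectoderm, 60.1 and 84.8 CPM in WNT_ACT and 47.4 and 51.5 CPM in WNT for neural crest, and 20.8 and 38.6 CPM in WNT_ACT and 34.4 and 37.1 CPM in WNT for trophoblast and amnion. They were 292 and 373 CPM in WNT_ACT and 310 and 447 CPM in WNT for visceral endoderm, and 449 and 748 CPM in WNT_ACT and 485 and 755 CPM in WNT for fibroblasts. The part of any of these cell types in the results above was not tested.

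Small changes were called among cycle and stress genes. Of 16 S phase genes 3 fell (18.8%, against 3.48% of all genes), the replication helicase genes MCM2 (-0.44, SE 0.09), MCM3 (-0.36, SE 0.07) and MCM4 (-0.33, SE 0.07), and the median was -0.18. The count was 2 without WNT_ACT replicate 2 and 0 without any of the other 3 libraries or without the block. Against WNT_E7 at the same time edgeR called 0 S phase genes (median -0.04), and the S phase median in WNT_E7 against WNT was -0.17. Of 18 G2 and M phase genes edgeR called 0 (median 0.05), with 4 at an unadjusted p under 0.05 and 2 called by DESeq2. Of 16 p53 targets, 3 rose (18.8%, against 5.78% of all genes), namely BTG2 by 1.47 (SE 0.21), ZMAT3 by 0.68 (SE 0.19) and BAX by 0.31 (SE 0.08). The list's median was 0.26, with 13 of 16 members higher in replicate 1 and 15 in replicate 2. BTG2 was called whichever library was left out; the count was 2 without WNT_ACT replicate 2, 1 without any of the other 3 and 0 without the block. Against WNT_E7, 1 of the 16 p53 targets was higher and 0 were lower (median -0.01), beside 4% and 2.35% of all genes. The p53 list's median in WNT_E7 against WNT was 0.28. Of 19 hypoxia and glycolysis genes 1 rose (5.26%, beside 5.78% of all genes) and 2 fell (10.5%, beside 3.48%). Those that fell were ADM, which encodes adrenomedullin, with 5.01 and 11.1 CPM in WNT_ACT against 35.2 and 43.5 CPM in WNT (-2.35, SE 0.52, adjusted p = 0.0193), and the glucose transporter gene SLC2A1 (-1.08, SE 0.16, adjusted p = 0.00371).

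Among the 12 largest rises of called genes with at least 5 CPM in the higher group were CER1, PRSS2, FGF17, GATA4, CD48, SOX17, DKK4, GATA6, GSC, MIXL1 and LHX1. PRSS2, a trypsinogen gene from a family of near-identical copies, had 9.17 and 3.57 CPM in WNT_ACT and no count in WNT, and was at least 167-fold higher (adjusted p = 0.0167). PRSS2 was not called by DESeq2 (adjusted p = 0.27), without WNT replicate 1 (0.168), without WNT replicate 2 (0.0777) or without the block (0.222). CD48, known as a surface protein of blood cells, had 11.6 and 1.77 CPM in WNT_ACT and no count in WNT, at least 176-fold higher (adjusted p = 0.00267), and was not called without WNT replicate 1 (0.0693) or without the block (0.0708). Both were above 1 CPM in each WNT_ACT library. These genes differed in E7_ACT, which had Activin A without Wnt3a. GSC, GATA6 and SOX17 stayed at 0.0964 CPM or less there. CER1 had 30.0 and 13.1 CPM in E7_ACT and no count in E7, and MIXL1 had 4.58 and 3.99 CPM in E7_ACT and 0.477 and 0.575 CPM in E7. For CER1 the second-day change with less that without the Wnt3a day was 0.37 (SE 4.87, adjusted p = 0.997 in edgeR).

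Among the 12 largest falls were HES3, GBX2, C6orf141, HTR1A, ELMOD1, IRX1, SMIM43, SORBS2, SYNDIG1L and PCSK1. HES3, a repressor of the Hes family, had 0.95 and 3.78 CPM in WNT_ACT and 29.2 and 35.9 CPM in WNT (-3.88, SE 0.68, adjusted p = 0.00765). GBX2, a homeobox gene of the posterior epiblast and hindbrain, had 3.34 and 4.97 CPM in WNT_ACT and 63.9 and 56.7 CPM in WNT (-3.85, SE 0.59, adjusted p = 0.00395). For both genes the WNT_ACT and WNT libraries did not overlap, as for 32.1% of all genes tested and 1485 of the 1648 called. ELMOD1 (-3.52, SE 0.48, adjusted p = 0.00247) and SYNDIG1L (-2.60, SE 0.31, adjusted p = 0.00153) stayed called when any 1 of the 4 libraries was left out and without the block. The other falls in this set ran from -3.63 for C6orf141 (SE 0.42) to -2.56 for PCSK1 (SE 0.63), with IRX1, an Iroquois homeobox gene, at -3.32 (SE 0.72). Against WNT_E7 at the same time PCSK1 was not called (-1.04, SE 0.64, adjusted p = 0.393 in edgeR), while each other gene named here was called lower in WNT_ACT. On the day without Activin A, PCSK1, HTR1A and SYNDIG1L differed from WNT by -1.52 (SE 0.59), -1.43 (SE 0.38) and -1.32 (SE 0.29) without being called.

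Few genes were called on the second day without Activin A. Between WNT_E7 and WNT, which shares its WNT libraries with the comparison above, 0 genes rose and 7 fell (0.0393% of those tested, edgeR), with 1463 genes at an unadjusted p under 0.05. Among the 7 were GAD1, CDX2, CHGA, TTC29, SP5 and LINC01124. GAD1, which encodes the enzyme that makes GABA, had 14.6 and 6.47 CPM in WNT_E7 and 63.8 and 42.0 CPM in WNT (-2.42, SE 0.14, adjusted p = 8.7e-05). In WNT_ACT, GAD1 stood at 68.0 and 30.9 CPM, which overlaps WNT (-0.19, SE 0.13, adjusted p = 0.428) and is higher than WNT_E7 by 2.23 (SE 0.14, adjusted p = 0.000187). LINC01124 followed the same course, with 2.57 and 1.85 CPM in WNT_ACT, 0.446 and 0.275 CPM in WNT_E7 and 2.04 and 2.14 CPM in WNT. CHGA and TTC29 fell on both second days (CHGA -1.07 in WNT_ACT and -1.12 in WNT_E7, TTC29 -3.37 in WNT_ACT and -3.61 in WNT_E7). The difference between WNT_ACT and WNT_E7 was 0.05 (SE 0.15, adjusted p = 0.881) for CHGA and 0.24 (SE 0.64, adjusted p = 0.88) for TTC29. The 7 calls became 2 without WNT replicate 1, 1 without WNT replicate 2 and 1 without WNT_E7 replicate 2, and 6 without WNT_E7 replicate 1. They were 0 without the block and 62 with DESeq2.

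WNT_ACT against WNT_E7, the same time with and without Activin A, gave 1130 calls (6.35%), 712 higher (4%) and 418 lower (2.35%). This was 159 without WNT_ACT replicate 1, 124 without WNT_E7 replicate 1, 878 without WNT_E7 replicate 2 and 1061 without WNT_ACT replicate 2, and 22 without the block.

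**Figure D4:**
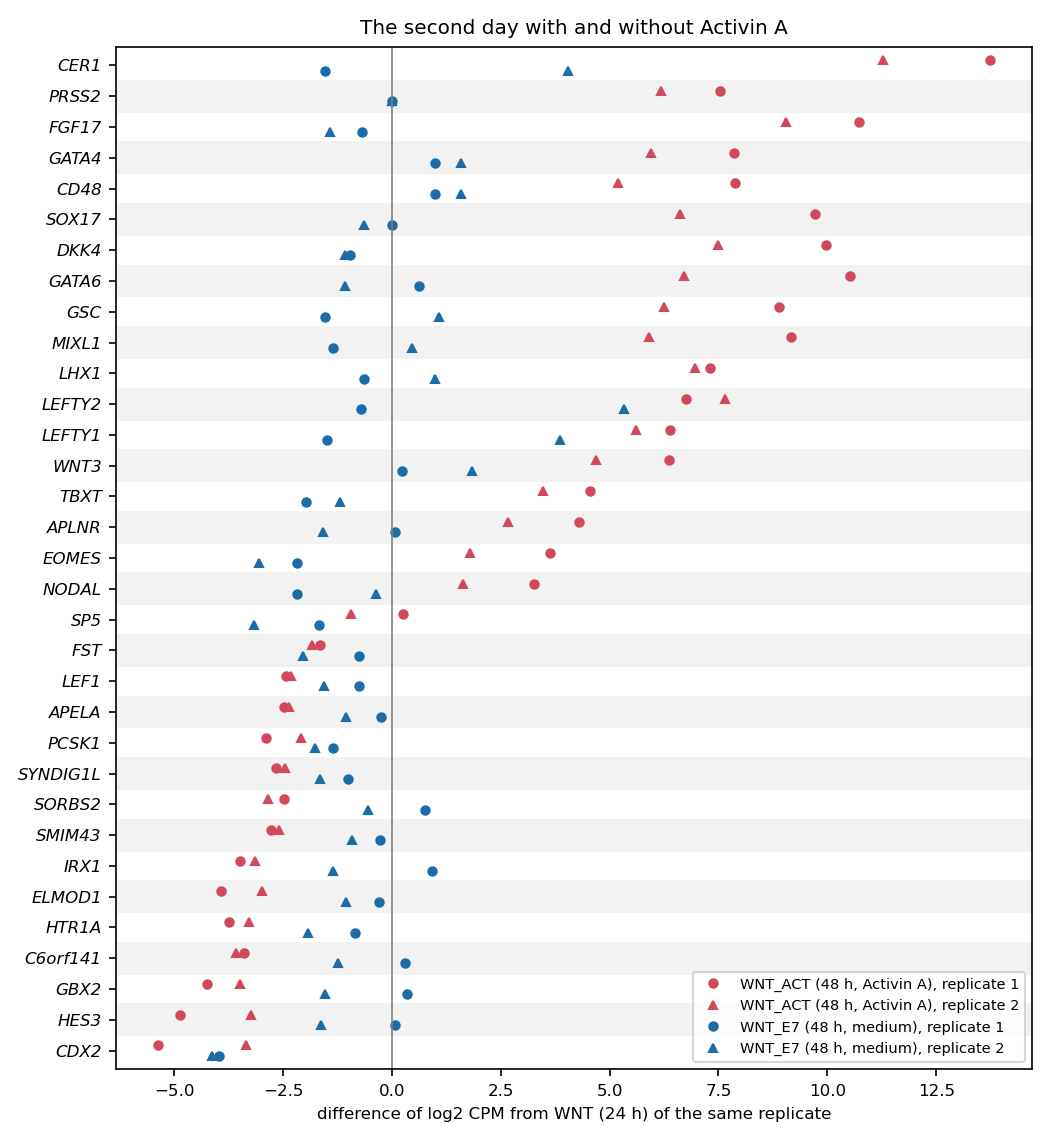
Difference from WNT of the same replicate number, in log2 CPM, for 33 genes on the second day with Activin A (WNT_ACT) and without it (WNT_E7); each point is 1 replicate. EOMES and SP5 lie below 0 in both WNT_E7 replicates; in WNT_ACT, EOMES lies above 0 in both and SP5 on either side of it.

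Whether the second day differed by what came before it was tested as the difference of WNT_ACT and WNT less the difference of E7_ACT and E7. This difference passed the test for 114 genes (0.641%), 66 higher (0.371%) and 48 lower (0.27%). For CHRD it was 3.64 (SE 0.44, adjusted p = 0.00665), with 0.337 and 0.305 CPM in E7_ACT and 1.74 and 0.767 CPM in E7. APLNR, the apelin receptor, also rose more after Wnt3a (3.70, SE 0.70, adjusted p = 0.0482), with 0.482 and 1.19 CPM in E7_ACT and 0.812 and 1.10 CPM in E7. ID1, the BMP target, went the other way (-2.76, SE 0.34, adjusted p = 0.00665), with 86.6 and 111 CPM in E7_ACT against 6.30 and 14.8 CPM in E7. EOMES did not pass this test (0.38, adjusted p = 0.98): it had 1.64 and 0.305 CPM in E7_ACT and 0.263 and 0.0959 CPM in E7, below both WNT_ACT and both WNT libraries. The count of 114 became 20 and 225 without WNT_ACT replicates 1 and 2, 12 and 16 without WNT replicates 1 and 2, 12 and 48 without E7_ACT replicates 1 and 2, and 15 and 33 without E7 replicates 1 and 2. It was 1 without the block and 399 with DESeq2.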

How the data were processed

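RNA was measured as gene counts in 16 libraries; the counts were deposited by the authors as raw whole-number counts per gene, one table per replicate number, per the file headers. Tools named in the submitters' processing notes are Bowtie2, deepTools, DESeq2, featureCounts and MACS2; the aligner and build used for the RNA counts, and whether strand was used, are not given in the sources used here. The tables share 27348 genes, and 27322 symbols were taken from the RefSeq table. The E7_CPI column of replicate 1 did not follow its own table's gene order (highest absolute Spearman correlation with any library 0.00657, against 0.954 to 0.986 in the gene order of the other table) and was left out, so 15 libraries with 36268324 to 43347733 counts were fitted, and E7_CPI has 1 library. On chromosome 22, 625 of 626 genes had no count, against 8.63% to 23.1% of genes on the other chromosomes, so its genes could not be seen. The ATAC peak list holds no values per sample and was not used.

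Counts were fitted with edgeR 4.0.16 and limma 3.58.1 in R 4.3.3 (filterByExpr by group, TMM factors 0.945 to 1.047, quasi-likelihood F-test, 2-sided) in 1 model of 8 groups with the replicate number as a block and 6 residual degrees of freedom. Benjamini-Hochberg adjustment ran over the 17793 genes tested, and a gene was called under 0.05. CPM use TMM-scaled totals; changes within a replicate use log2 CPM with a prior count of 2. The numbers paired the samples: deviations from group means correlated between same-numbered libraries in each of 21 group pairs (r = 0.456 to 0.899, 13976 genes), and the common biological coefficient of variation was 0.122 with and 0.29 without the block. On simulated counts for WNT_ACT against WNT (17793 genes), 96% of 100 genes changed by 2 on the log2 scale and 73% of 100 changed by 1 were recovered, with 12 false calls among 181. These counts were drawn with the fitted spread, otherwise equal group means and the same replicate shift in every group, and genes with few counts were not changed. The simulation therefore cannot speak for genes near 0 in WNT or for changes that differ between replicates. Counting intervals (95%) and the floor of 3 counts cover counting error only. Named genes were the 3 markers, the 12 largest rises and 12 largest falls among called genes that moved the same way in both replicates with at least 5 CPM in the higher group, and list members called or needed beside them. A few genes that met this rule are not reported here. The comparison, its markers and the 25 gene lists were chosen with earlier results of these data known. Alternatives were no replicate block, DESeq2 1.42.0 (Wald test with the block), other scalings and filters, fewer groups in the fit, and each library left out in turn.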

Additional observations from a re-analysis of the deposited data

Results flagged for a closer look

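For 9 genes given above the second-day change after Wnt3a (WNT_ACT minus WNT) differed from that without it (E7_ACT minus E7) by a test of the difference itself in edgeR. The difference was 5.02 on the log2 scale for BMP2 (SE 0.91, adjusted p = 0.0414), with 1.52 and 1.65 CPM in E7_ACT and 2.89 and 3.91 CPM in E7. It was 3.70 for APLNR, 3.64 for CHRD and 0.87 for MMP14 (SE 0.15, adjusted p = 0.0383). It ran the other way, at -2.76, for ID1 and at -5.67 for TTC29 (SE 0.77, adjusted p = 0.0136), which had 0.169 and 0.330 CPM in E7_ACT and 0.0239 and 0.0719 CPM in E7. DNMT3B differed by -0.79 (SE 0.14, adjusted p = 0.0383), with 3088 and 3431 CPM in E7_ACT and 2312 and 2912 CPM in E7. NANOG differed by -1.21 (SE 0.23, adjusted p = 0.0476), with 235 and 318 CPM in E7_ACT and 71.7 and 113 CPM in E7. The value of 12.34 for CD48 (adjusted p = 0.0352) is fitted against WNT libraries without a count and is no measure of size. Of the 8 fits that each leave out 1 library, CHRD and ID1 were called in 5, APLNR in 2, BMP2, MMP14, TTC29 and CD48 in 1, and DNMT3B and NANOG in 0.

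The 9 genes with the lowest p in this test over all genes were on no list. They were picked by this same test, so a call in fits of most of the same libraries is no separate support. The difference was 2.34 for FLRT2 (SE 0.17, adjusted p = 0.000841), -1.90 for PCSK5 (SE 0.17, adjusted p = 0.00272), 4.09 for SEMA6D (SE 0.41), 1.98 for RHOU (SE 0.20), -2.44 for LRAT (SE 0.25), 1.51 for FOXP4 (SE 0.16), 2.73 for BACE2 (SE 0.29), 1.91 for CHST2 (SE 0.20) and -1.76 for RND3 (SE 0.19), the last 7 each at an adjusted p of 0.0034. Each of these 9 was called whichever of the 8 libraries was left out, and only FLRT2 was called without the block (adjusted p = 0.0295).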

How the results depend on the processing

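No named gene reversed its direction under any alternative run. The replicate numbers pair the samples, and without the replicate block the counts of called genes fell to 112 for WNT_ACT against WNT, 0 for WNT_E7 against WNT, 22 for WNT_ACT against WNT_E7 and 1 for the interaction; 96 of the 108 named genes were then not called. DESeq2 called 2203, 62, 1726 and 399 genes in these 4 comparisons, and fits of the compared groups alone with the block 2289, 32, 1286 and 233. Leaving out each library in turn gave 196 to 1246, 1 to 6, 124 to 1061 and 12 to 225 calls. Of the named genes, 82 were not called without WNT replicate 1, 68 without WNT replicate 2, 67 without WNT_ACT replicate 1 and 26 without WNT_ACT replicate 2. Other scalings, other filters on low counts and a fit without the E7_CPI group kept the count for WNT_ACT against WNT between 1622 and 1663 and ended the call of at most 3 named genes each. The cause of these differences was not tested. Genes on chromosome 22, and genes with few counts in WNT, are beyond what these counts can show in size.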

Other observations

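The 9 genes with the lowest p in the test of the second day with and without a Wnt3a day, chosen after their values were seen, differed in which second day moved. CHST2, which encodes a sulfotransferase, had 42.6 and 72.4 CPM in WNT_ACT and 11.3 and 15.7 CPM in WNT (2.07, SE 0.14, adjusted p = 0.000473), and BACE2, a protease gene, had 75.2 and 74.5 CPM in WNT_ACT and 13.7 and 15 CPM in WNT (2.39, SE 0.20, adjusted p = 0.000569). LRAT, which esterifies retinol for storage, fell to 17.7 and 18.0 CPM in WNT_ACT, against 96.7 and 91.4 CPM in WNT (-2.39, SE 0.18, adjusted p = 0.000514). RHOU, a small GTPase gene, had 20.5 and 23.6 CPM in WNT_ACT and 7.28 and 8.80 CPM in WNT (1.46, SE 0.14, adjusted p = 0.000862). FLRT2, a relative of FLRT3, had 50.2 and 48.7 CPM in WNT_ACT and 19.2 and 19.7 CPM in WNT (1.35, SE 0.12, adjusted p = 0.000569), with 5.20 and 4.85 CPM in E7_ACT and 11.2 and 8.80 CPM in E7. SEMA6D, a semaphorin gene, had 5.93 and 2.38 CPM in WNT_ACT and 1.25 and 0.506 CPM in WNT (2.22, SE 0.30, adjusted p = 0.00242), with 2.34 and 1.09 CPM in E7_ACT and 9.55 and 3.50 CPM in E7. For each of these 6 the WNT_ACT and WNT libraries did not overlap, as for 32.1% of all genes tested and 1485 of the 1648 called. WNT_E7 gave 13.1 and 18.2 CPM of CHST2, 13.2 and 17 CPM of BACE2, and 91.1 and 64.3 CPM of LRAT. It gave 8.45 and 11.6 CPM of RHOU, 23.8 and 19.6 CPM of FLRT2, and 1.24 and 0.674 CPM of SEMA6D.

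For the other 3 the larger difference lay between E7_ACT and E7. PCSK5, a proprotein convertase gene, had 62.9 and 53.3 CPM in E7_ACT and 21.1 and 17 CPM in E7, beside 12.2 and 13.2 CPM in WNT_ACT and 17.2 and 13.8 CPM in WNT (-0.28, SE 0.12, adjusted p = 0.177). RND3 had 137 and 96.0 CPM in E7_ACT and 50.3 and 55.0 CPM in E7, and fell to 27.2 and 23.9 CPM in WNT_ACT, against 43.6 and 36.4 CPM in WNT (-0.64, SE 0.13, adjusted p = 0.0152). FOXP4, a forkhead factor gene, had 11.1 and 17.2 CPM in E7_ACT and 34.8 and 44.3 CPM in E7, beside 22.3 and 29.8 CPM in WNT_ACT and 22.6 and 29.0 CPM in WNT (0.01, SE 0.11, adjusted p = 0.969). The difference between E7_ACT and E7 was not tested by itself for these genes.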
